A study of Mus musculus with 8 samples.

Results

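Strong intergenic regions near genes were the subject of this comparison: stretches of open chromatin that overlap no protein-coding gene span, lie over 1 kb and at most 50 kb from the nearest gene end, and carry a high signal. They were selected on chromosomes 1 to 19 of GRCm38 by position and by a mean of at least 20 CPM (raw counts scaled to the library total) across all 8 libraries. The rule kept 1571 of the 59906 regions in the table (2.62%), which is 10.5% of the 14908 regions that met the distance limits. All 1571 passed the filter on low counts. Because the mean level chose the regions, their levels are given as a description. The WT against OPA1KO contrast was not used by the rule.

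The libraries are ATAC-seq, an assay in which a transposase cuts and tags DNA that is not wrapped tightly in chromatin, of splenic conventional type 1 dendritic cells (cDC1), 4 from WT mice and 4 from mice with CD11c-Cre and floxed OPA1 (OPA1KO). CD11c-Cre acts in cells that express CD11c, the integrin Itgax, which are not limited to cDC1. The labels give no age or sex, and do not say whether the WT mice carried Cre, which part of Opa1 was floxed, or which library came from which animal. P-values therefore measure the spread between these libraries.

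Open chromatin outside genes holds enhancers, which bind transcription factors and act on promoters at a distance, and also the promoters of non-coding RNAs. The gene nearest to such a region is often, but not always, the gene it acts on, so a nearest gene here is a name for a position. cDC1 take up antigen from dying cells and present it to CD8 T cells, and OPA1 is a GTPase that fuses the inner mitochondrial membrane and keeps its cristae in shape.

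Some of the strongest regions lay over promoters of long non-coding RNAs (lncRNAs). Of the 1571 regions, 114 (7.26%) overlapped a RefSeq lncRNA promoter window, which runs from 250 bases before to 50 after a transcript start, against 252 of 13195 tested intergenic regions (1.91%) at the same distances with a mean under 20 CPM. The 114 regions covered 133 windows of 120 lncRNA genes. Of all 1571 regions, the 114 included, 1090 (69.4%) lay away from every gene model of any kind. Another 294 lay at an end of a non-coding or pseudogene model and 187 inside one. Of the 12 strongest regions, 4 covered a lncRNA promoter, and the windows of 3 of these lncRNAs are shown, 5′ to 3′ on the strand of the lncRNA, as examples of the sequence under high signals. Capitals mark matches on either strand to the CCAAT box (CCAAT), the GC box (GGGGCGGGG) and the TATA box (TATAAA).
Mir22hg, GRCm38.p6 chr11:75461289-75461588, plus strand: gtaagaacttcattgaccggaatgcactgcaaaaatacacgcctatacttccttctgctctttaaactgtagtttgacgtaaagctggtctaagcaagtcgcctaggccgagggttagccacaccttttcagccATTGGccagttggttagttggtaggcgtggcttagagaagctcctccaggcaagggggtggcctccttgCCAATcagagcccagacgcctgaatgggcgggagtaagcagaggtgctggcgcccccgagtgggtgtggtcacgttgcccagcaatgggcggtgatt
Chaserr, GRCm38.p6 chr7:73558346-73558645, minus strand: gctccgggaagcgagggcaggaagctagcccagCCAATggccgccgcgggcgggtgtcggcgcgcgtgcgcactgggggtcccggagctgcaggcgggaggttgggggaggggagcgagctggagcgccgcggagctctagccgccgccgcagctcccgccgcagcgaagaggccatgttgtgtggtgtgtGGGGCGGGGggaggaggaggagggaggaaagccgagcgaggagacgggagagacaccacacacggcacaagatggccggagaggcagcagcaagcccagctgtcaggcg
Snhg8, GRCm38.p6 chr3:123508287-123508586, minus strand: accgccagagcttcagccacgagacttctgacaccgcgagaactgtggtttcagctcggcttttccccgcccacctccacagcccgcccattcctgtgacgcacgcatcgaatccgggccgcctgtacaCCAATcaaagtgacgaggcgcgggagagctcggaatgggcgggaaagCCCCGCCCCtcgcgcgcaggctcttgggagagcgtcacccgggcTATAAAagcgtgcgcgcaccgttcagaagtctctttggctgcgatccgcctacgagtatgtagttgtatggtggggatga
Mir22hg is the host transcript of miR-22, Chaserr is transcribed next to the chromatin remodeller gene Chd2, and Snhg8 hosts a small nucleolar RNA. The window of the remaining lncRNA, 1700096K18Rik, held no CCAAT match, whereas the 3 shown did, as did 37.4% of all 32851 promoter windows.

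The 133 windows under the regions differed in base composition from the 11588 lncRNA windows of the whole table. Their median GC content was 56.0%, against 48.3%, and their median ratio of observed to expected CpG was 0.647, against 0.245; all 32851 windows, coding genes included, had medians of 52.7% and 0.384. The ETS motif (CCGGAAG) was found in 13.5% of windows under the regions, in 3.89% of all lncRNA windows and in 8.86% of all windows. The E box (CACGTG) was found in 18.0%, 5.89% and 7.15% in the same order, and the GC box in 15.8%, 4.28% and 11.4%. For the cyclic AMP response element (TGACGTCA) the shares were 4.51%, 0.975% and 1.79%. The NRF1 motif, searched by its palindromic core, was rare, at 1.5%, 0.311% and 0.971%. The AP-1 motif (TGANTCA) was at 10.5%, 9.31% and 7.81%, and the TATA box at 15.8%, 15.5% and 13.6%. The ETS, E box, GC box and cyclic AMP shares thus stood above both comparison sets, while those of AP-1 and TATA were close to them. Both strands were searched, 1 match was enough, and windows of 1 gene can overlap; these are matches of letters, described without a test.

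**Figure D1:**
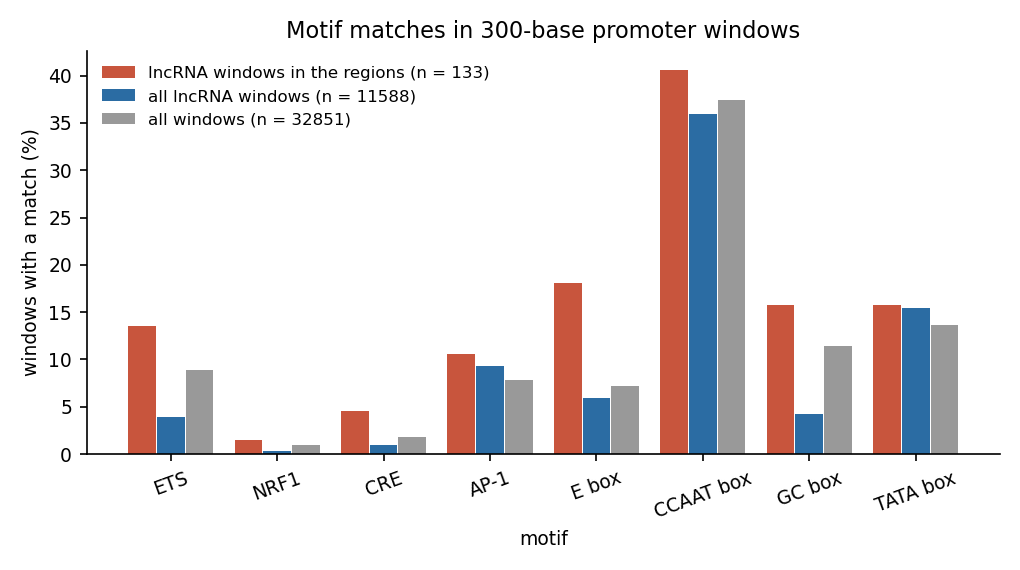
Percent of 300-base promoter windows with at least 1 match to each motif on either strand (y axis), for 8 motifs (x axis). Red bars are the 133 lncRNA windows under strong intergenic regions, blue bars all 11588 lncRNA windows and grey bars all 32851 windows; the E box bar reaches 18.0% in red and 5.89% in blue.

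MicroRNA genes formed a second non-coding group. Of 1005 hairpins in the RefSeq table, 14 lay within 1 kb of a region, and 9 regions were involved. The mature sequences of those best known in blood cells are shown with their seed (bases 2 to 8) in capitals, because the seed sets which messages a miRNA pairs with.
miR-155-5p: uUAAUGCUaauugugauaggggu
miR-142a-3p: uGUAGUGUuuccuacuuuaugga
let-7i-5p: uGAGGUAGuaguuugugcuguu
miR-132-3p: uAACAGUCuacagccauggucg
miR-212-3p: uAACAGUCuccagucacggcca
miR-23a-3p: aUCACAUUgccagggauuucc
miR-27a-3p: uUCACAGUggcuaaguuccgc
miR-24-3p: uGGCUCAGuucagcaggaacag
miR-210-3p: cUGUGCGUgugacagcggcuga
miR-132-3p and miR-212-3p, whose hairpins lie in the same region near Ovca2 (chr11:75172960-75173903), have the same seed; the other 7 seeds differ from it and from each other. The region beside the miR-142 hairpin, near Tspoap1 (chr11:87756460-87756849), was at 41.8, 73.8, 44.8 and 60.8 CPM in WT replicates 1 to 4 and at 48.5, 53.0, 59.8 and 41.8 CPM in OPA1KO replicates 1 to 4 (TMM-scaled, as are all levels per library). The region that meets the promoter window of Mir155hg, the host transcript of miR-155, in its last 15 bases, near Mrpl39 (chr16:84713058-84713569), was at 21.3, 16.2, 23.6 and 24.0 CPM in WT and at 14.8, 22.9, 14.2 and 28.4 CPM in OPA1KO. WT replicate 2 was the highest library at miR-142 and among the 3 lowest at Mir155hg, and the groups overlapped at both. Over the 9 regions the log2 fold change of OPA1KO over WT ran from -0.12 to 0.12, and the smallest adjusted p of edgeR's quasi-likelihood test was 0.936.

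The 1571 regions had 1166 nearest genes, 5.33% of the 21887 protein-coding models. Of these genes, 882 had 1 region, 284 had more, and the 27 with 4 or more held 129 regions. The mean level ran from 20.01 to 341 CPM with a median of 32.2 CPM, and 55 regions reached 100 CPM. The median width was 519 bp and the median distance to the gene was 10.9 kb (quartiles 4.61 and 22.0 kb). Of the regions, 544 (34.6%) lay within 10 kb of another. Chromosome 2 held the most, 127, and chromosome 18 the fewest, 38. Just inside the level limit were regions near Tiparp (20.01 CPM), Map2k3 (20.01 CPM) and Ptp4a2 (20.04 CPM), and just outside it regions near Qrsl1, Cnn2 (19.99 CPM) and Armc12 (19.98 CPM).

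For 1289 regions (82.0%) the nearest gene also had a tested region at one of its ends. The intergenic region was the stronger of the pair in 549 cases (42.6%). Genotype differences of the 2 regions of a pair correlated across pairs at r = 0.10 (n = 1289), and 690 pairs (53.5%) had the same sign; both come from the same 8 libraries, and pairs are not replicates.

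Among the 12 strongest regions, 1 per nearest gene, were regions near immediate-early genes and a nutrient transporter. A region 1.37 kb from Nr4a3, an orphan nuclear receptor induced by activation, was at 199, 257, 227 and 229 CPM in WT and at 221, 240.0, 237 and 199 CPM in OPA1KO. A region 8.25 kb from Slc2a3, a glucose transporter, was at 189.9, 206, 189.6 and 185 CPM in WT and at 172, 183, 191 and 201 CPM in OPA1KO. A region 18.2 kb from Fos, a subunit of AP-1, was at 137, 189, 143 and 182 CPM in WT and at 166, 176, 189 and 148 CPM in OPA1KO. The groups overlapped at each of these regions. The region near Tlcd2 that covers the Mir22hg promoter (chr11:75461059-75461775) was at 202, 300.2, 226 and 251 CPM in WT and at 234, 241, 275 and 193 CPM in OPA1KO, with WT replicate 2 highest and OPA1KO replicate 4 lowest. The region near Chd2 over the Chaserr promoter was at 159.8, 197, 167 and 179 CPM in WT and at 179, 192, 189.6 and 175 CPM in OPA1KO. The region near Prss12 over the Snhg8 promoter was at 177, 189, 162 and 178 CPM in WT and at 147, 162, 174 and 177 CPM in OPA1KO. Of these 2, the Snhg8 region alone had its lowest library in the OPA1KO group.

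The strongest region of all, 44.7 kb from Zfp958 (chr8:4677270-4678889), was at 341, 381, 336 and 375 CPM in WT and at 298, 350.1, 341 and 314 CPM in OPA1KO. It overlapped the pseudogene model Gm6410, where reads may be shared with a near-identical copy, and the WT and OPA1KO groups overlapped. The other 5 lay near Cct8l1 (222 CPM, over the promoter of the lncRNA 1700096K18Rik), Kifbp (201 CPM), Zswim4 (196 CPM), Frmd8 (149.7 CPM, overlapping the lncRNA Neat1) and Ptpdc1 (144 CPM). At none of the 12 were the groups apart; their log2 fold changes ran from -0.14 to 0.06, and the smallest adjusted p was 0.799 (edgeR). WT replicate 2 was the highest library at 10 of the 12, and WT replicate 1 the lowest at 6.

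**Figure D2:**
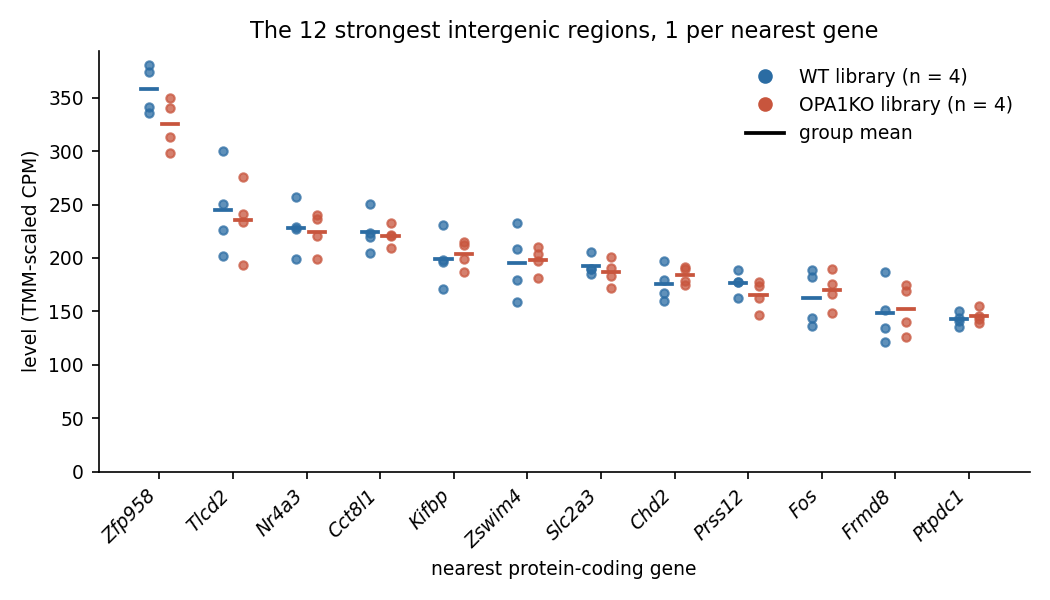
Level in TMM-scaled CPM (y axis, from 0) at the strongest region of each of 12 nearest genes (x axis). Points are single libraries, blue for WT and red for OPA1KO, and bars are group means of 4; the 2 groups overlap at every gene.

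Before the genotypes are compared, the libraries need describing, since 3 of them stood apart at these regions. WT replicate 2 was the highest library at 763 of the 1571 regions (48.6%), WT replicate 1 the lowest at 460 (29.3%) and OPA1KO replicate 4 the lowest at 403 (25.7%). The median deviation of a library from the mean of 8, in log2(CPM + 1), was 0.20 in WT replicate 2, -0.14 in WT replicate 1 and -0.12 in OPA1KO replicate 4, and lay between -0.07 and 0.07 in the other 5. The range over libraries was 0.34 at the strong intergenic regions, 0.30 at strong intergenic regions beyond 50 kb, 0.25 at strong regions inside genes, 0.13 at strong gene ends and 0.06 at weaker intergenic regions at the same distances. Within the strong intergenic regions, it was 0.22 in the lowest of 4 equal groups by level and 0.45 in the highest, and 0.18 at regions over lncRNA promoters against 0.36 at the rest. These are descriptions; the difference between classes of region was not tested.

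**Figure D3:**
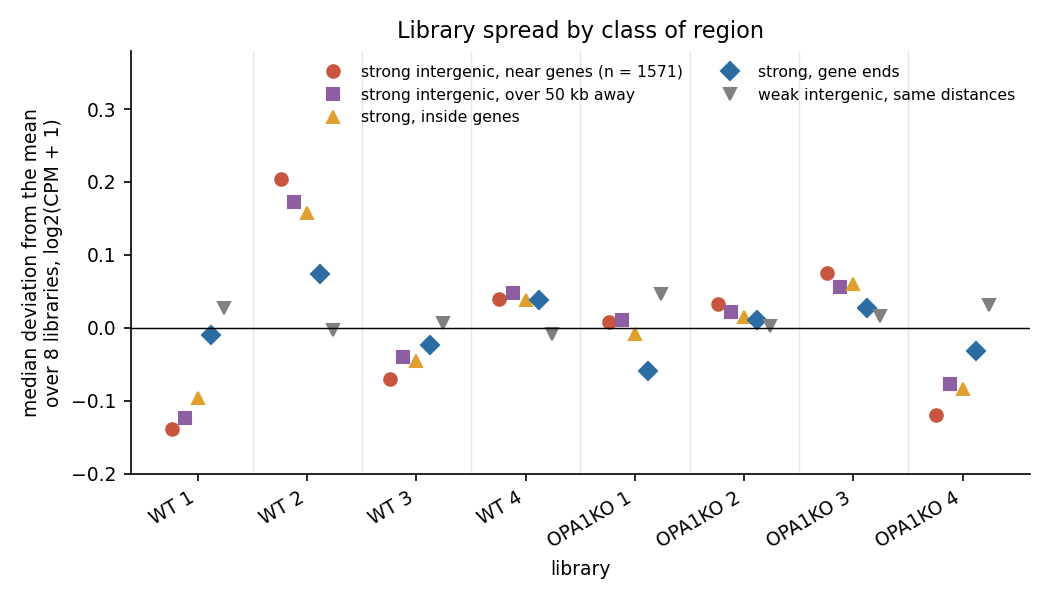
Median deviation of each library (x axis) from the mean over 8 libraries in log2(CPM + 1) (y axis), for 5 classes of region shown by colour and marker. At the 1571 strong intergenic regions (red circles) WT replicate 2 is at 0.20 and WT replicate 1 at -0.14, and the gene ends (blue diamonds) lie closer to 0 in both.

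WT replicate 2, WT replicate 1 and OPA1KO replicate 4 did not deviate in the same directions at every region. The shares that unrelated signs would give were not computed, so the shares below are descriptions. At 867 regions (55.2%) WT replicate 2 was above its mean of 8 while WT replicate 1 and OPA1KO replicate 4 were below it, and at 191 regions (12.2%) all 3 were the other way round; at strong regions inside genes the shares were 49.8% and 13.99%, and at strong gene ends 34.9% and 17.0%. Among the regions with the largest such contrast was 1 near Vmp1, an autophagy gene (3.10 kb away), at 15.1, 34.0, 24.1 and 23.9 CPM in WT and at 24.6, 20.3, 23.7 and 8.21 CPM in OPA1KO. Near Tlr3, the receptor for double-stranded RNA that cDC1 express, a region 3.87 kb away was at 38.8, 22.1, 25.5 and 27.8 CPM in WT and at 23.9, 27.2, 26.2 and 33.3 CPM in OPA1KO. The first thus had WT replicate 2 highest and OPA1KO replicate 4 lowest, and the second had WT replicate 1 highest and WT replicate 2 lowest. Both were picked out after their values were seen.

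Markers of other cell types moved with the libraries in part. The summed level at gene ends of neutrophil markers (9 of 14 had a region, among them S100a8 and S100a9, while Ly6g, Elane and Mpo had none within 1 kb of an end) was at 77.4, 123, 83.2 and 112 CPM in WT and at 106, 101, 111 and 77.1 CPM in OPA1KO. S100a8, S100a9, Cxcr2, Mmp8 and Mmp9 were higher in WT replicate 2 than in OPA1KO replicate 4, and Cebpe, Ltf, Ngp and Retnlg were lower. The sum of monocyte and macrophage markers (18 of 23) was 426 to 501 CPM in WT and 409 to 470.3 CPM in OPA1KO, with WT replicate 2 highest and OPA1KO replicate 4 lowest. Cd14 and Cd68 followed this order. Fcgr1, Ly6c2, Lyz2, Maf, Mertk, Slc40a1 and Spic were lower in WT replicate 2 than in OPA1KO replicate 4, and the other markers of the sum were higher. The T cell sum (6 of 15, with no region at Cd3e or Lck) followed the same order at its extremes, at 123 CPM in WT replicate 2 and 96.3 CPM in OPA1KO replicate 4. The cDC1 sum (17 of 20, with Xcr1, Clec9a, Cadm1 and Wdfy4 all represented) was 323 to 356 CPM in WT and 349.8 to 375 CPM in OPA1KO. The remaining sums were 246 to 269 and 254 to 269.9 CPM for cDC2 (12 of 15), 103 to 107 and 102 to 112 CPM for plasmacytoid cells (6 of 13), 72.8 to 92.1 and 71.0 to 86.7 CPM for B cells (8 of 14, with no region at Cd79b or Pax5), 10.9 to 16.7 and 11 to 14.5 CPM for NK cells (4 of 12), and 160.4 to 166 and 162 to 176 CPM for red cells (7 of 13), WT first. Whether other cells have a part in the library spread was not tested, and in bulk samples fewer cells of a type and less signal per cell cannot be told apart. The 1 region of the targeted gene Opa1, at its start, was at 47.0, 40.7, 42.9 and 37.9 CPM in WT and at 34.6, 41.4, 37.97 and 43.0 CPM in OPA1KO, and the overlapping groups check nothing about the deletion.

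No strong intergenic region differed between OPA1KO and WT past the threshold. At an adjusted p under 0.05 in edgeR's quasi-likelihood test, 0 of 1571 were called, against 12 of all 59247 tested regions (0.0203%); DESeq2 and limma-voom also called 0 of the 1571. At an unadjusted p under 0.05, 17 were higher and 26 lower in OPA1KO (1.08% and 1.655%), where the whole table had 2.92% higher and 3.46% lower. The 4 libraries of each group did not overlap at 11 regions higher and 11 lower, against 1.84% and 2.11% of all regions. As shares of 1571, all 4 counts were under the background. The median log2 fold change was -0.01 (90% of regions between -0.23 and 0.20), against 0.00 over all tested regions (-0.004), with a median standard error of 0.14 per region. The smallest adjusted p was 0.527. By distance from the gene, 6 of 424 regions at 1 to 5 kb and 8 of 312 at 5 to 10 kb passed the unadjusted threshold. At 10 to 25 kb 20 of 499 passed it, and at 25 to 50 kb 9 of 336. In each distance class the shares higher and lower were under those of the whole table.

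These counts depended on WT replicate 2. Without it, 114 regions were higher and 29 lower at an unadjusted p under 0.05 in edgeR, against 4.01% and 4.55% of 59409 tested regions, the median log2 fold change was 0.06, and 1 of the 1571 was called (68 of the whole table, 0.114%). That region lay 37.2 kb from Odc1, the first enzyme of polyamine synthesis (chr12:17507089-17507622), at 17.7, 28.9, 12.5 and 17.6 CPM in WT and at 24.6, 25.2, 29.5 and 29.7 CPM in OPA1KO. The WT libraries other than replicate 2 lay below all 4 OPA1KO libraries. Its log2 fold change was 0.50 ± 0.18 (SE, edgeR adjusted p = 0.605) with all libraries and 0.77 with an adjusted p of 0.031 without WT replicate 2. Without WT replicate 1 the split turned the other way, to 15 higher and 71 lower, together 5.47% of the 1571 beside 6.59% of all tested regions. Without OPA1KO replicate 4 it was 56 higher and 36 lower, together 5.86% beside 7.03% of all tested regions.

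**Figure D4:**
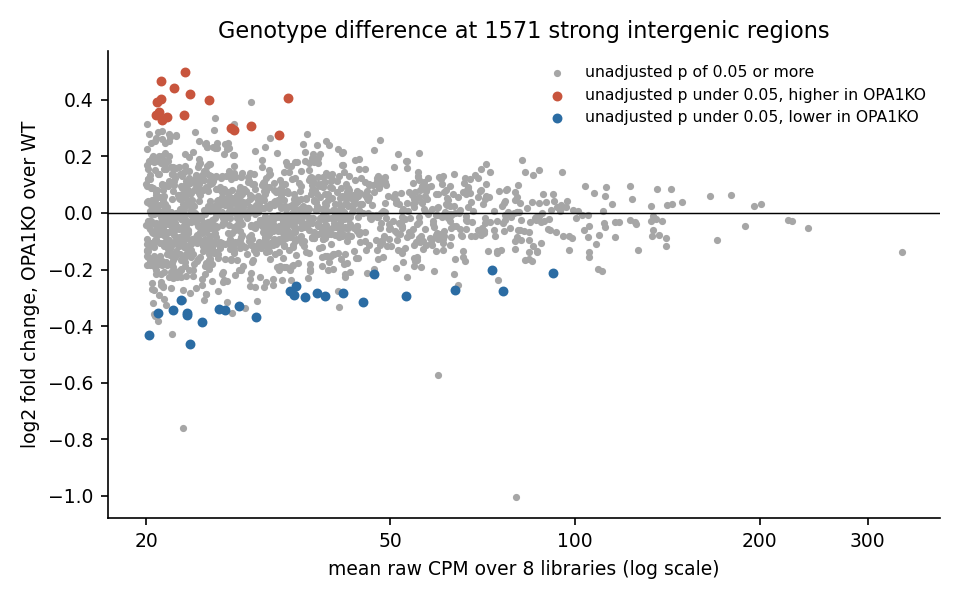
Log2 fold change of OPA1KO over WT (y axis) against mean raw CPM over 8 libraries on a log scale (x axis) for the 1571 regions. Red and blue points are the 17 higher and 26 lower regions at an unadjusted p under 0.05 in edgeR, grey points the rest; the 3 lowest points, from -1.0 to -0.57, are regions near Ccr1 with a large spread within WT.

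The share of counts in the strong intergenic regions as a whole differed between genotypes by less than the spread between libraries. They held 5.87%, 7.05%, 6.15% and 6.48% of the counts in WT and 6.54%, 6.52%, 6.66% and 5.97% in OPA1KO. The means were 6.39% ± 0.507 and 6.42% ± 0.308 (SD, n = 4 each; two-sided exact permutation test over 70 assignments, p = 0.886, where the smallest possible p is 0.0286). The log2 ratio of their counts to those of gene-end regions was -3.02 ± 0.118 in WT and -3.00 ± 0.0731 in OPA1KO (SD, n = 4 each, exact permutation p = 0.743). The log2 ratio to strong regions inside genes was -0.96 ± 0.0435 and -0.95 ± 0.0278 (SD, n = 4 each, exact permutation p = 0.629). Adjusted over these 3 comparisons each p was 0.886. WT replicate 2 had the highest share of all 8 libraries and WT replicate 1 the lowest; without WT replicate 2 the difference in share was 0.253 percentage points.

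The regions whose groups did not overlap were few and their differences were small. The smallest p belonged to a region 29.4 kb from Gpcpd1, a glycerophosphodiester phosphodiesterase (chr2:132607677-132608089), at 20.2, 19.03, 15.0 and 16.7 CPM in WT and at 24.3, 26.5, 27.2 and 20.4 CPM in OPA1KO. All OPA1KO libraries were above all WT libraries, by a log2 fold change of 0.47 ± 0.15 (SE, edgeR adjusted p = 0.527). The lowest OPA1KO library, replicate 4 at 20.4 CPM, barely exceeded the highest WT library, replicate 1 at 20.2 CPM. A region 19.3 kb from Pag1, a membrane adaptor that recruits the kinase Csk (chr3:9852939-9853634), was at 16.1, 24.6, 24.3 and 22.6 CPM in WT and at 31.6, 26.1, 30.2 and 27.1 CPM in OPA1KO, and its groups were likewise apart (0.40 ± 0.15, edgeR adjusted p = 0.623). The other 6 named regions higher in every OPA1KO library lay near Gm46353, Rpia (an enzyme of the pentose phosphate pathway), Gm38664, Arhgap27, Ccdc9 and Trit1 (a tRNA-modifying enzyme), with log2 fold changes from 0.18 near Trit1 to 0.40 near Gm46353.

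Lower in every OPA1KO library was a region 19.3 kb from Hif1a, the oxygen-responsive transcription factor (chr12:73881460-73882024), at 24.3, 32.4, 24.9 and 23.3 CPM in WT and at 16.1, 22.7, 22.0 and 21.7 CPM in OPA1KO. Its log2 fold change was -0.35 ± 0.15 (SE, edgeR adjusted p = 0.719), and the gap between the lowest WT and the highest OPA1KO library was under 1 CPM. A region 14.8 kb from Stx11, a syntaxin of granule and vesicle fusion (chr10:12922504-12923405), was at 37.9, 42.1, 43.5 and 49.2 CPM in WT and at 34.3, 32.3, 37.3 and 36.8 CPM in OPA1KO (-0.29 ± 0.12, edgeR adjusted p = 0.673). It covered the promoter of the lncRNA B230208H11Rik. A region near Mmd over the promoter of the lncRNA Gm42089 was at 51.28, 70.02, 54.5 and 59.0 CPM in WT and at 51.0, 45.5, 51.26 and 43.7 CPM in OPA1KO, with the groups almost touching (-0.29 ± 0.11, edgeR adjusted p = 0.623). A region near Zfp324 over the promoter of the lncRNA Gm29638 was at 104, 92.9, 100.3 and 98.7 CPM in WT and at 80.3, 80.9, 90.4 and 89.6 CPM in OPA1KO (-0.21 ± 0.09, edgeR adjusted p = 0.683). Regions near Olfr97 (-0.36), Ifna15 (-0.26), Tspan2 (-0.24) and 4930503L19Rik (-0.22) completed the named set; Olfr97 and Ifna15 belong to multigene families, whose reads may be shared between copies. Over the 16 regions of both directions, edgeR's adjusted p ran from 0.527 to 0.843 and 11 had an unadjusted p under 0.05. Of the 114 regions over lncRNA promoters, 0 were higher and 5 lower at that threshold (4.39%), near Samd9l, Mmd, Stx11, Zfp324 and Tomm7, beside 3.46% lower in the whole table; the count was below 6 and these are named for that reason.

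The widest spread over libraries of all 1571 regions, and the lowest log2 fold change, were at a group of 5 regions nearest to Ccr1, a receptor for inflammatory chemokines. They lay 20.4 to 30.8 kb from the gene on chromosome 9, and were singled out after their values were seen. The strongest (chr9:123931565-123932496) was at 113, 198, 61.0 and 59.4 CPM in WT and at 57.5, 57.1, 60.9 and 40.5 CPM in OPA1KO. A second (chr9:123936590-123937038) was at 80.8, 124, 42.6 and 40.4 CPM in WT and at 47.8, 48.6, 54.3 and 44.0 CPM in OPA1KO. The third (chr9:123930823-123931362) was at 25.7, 55.5, 17.1 and 18.3 CPM in WT and at 18.8, 17.1, 20.9 and 12.5 CPM in OPA1KO. At all 3, WT replicates 1 and 2 were the 2 highest libraries while WT replicates 3 and 4 lay within, at the edge of or, at the second region, below the OPA1KO range. The log2 fold changes were -1.0 ± 0.44, -0.57 ± 0.38 and -0.76 ± 0.35 (SE; edgeR adjusted p = 0.795, 0.873 and 0.793), and without WT replicate 2 they were -0.53, -0.18 and -0.24. The 2 regions nearer to the gene did not share this pattern. One (chr9:123941383-123941730) was at 10.0, 21.1, 16.5 and 28.2 CPM in WT and at 24.3, 26.8, 26.2 and 25.3 CPM in OPA1KO, so WT replicate 1 was there the lowest library. The standard deviation over the 8 libraries, in log2(CPM + 1), was 0.71 at the strongest of the 5, against a median of 0.20 over all strong intergenic regions.

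**Figure D5:**
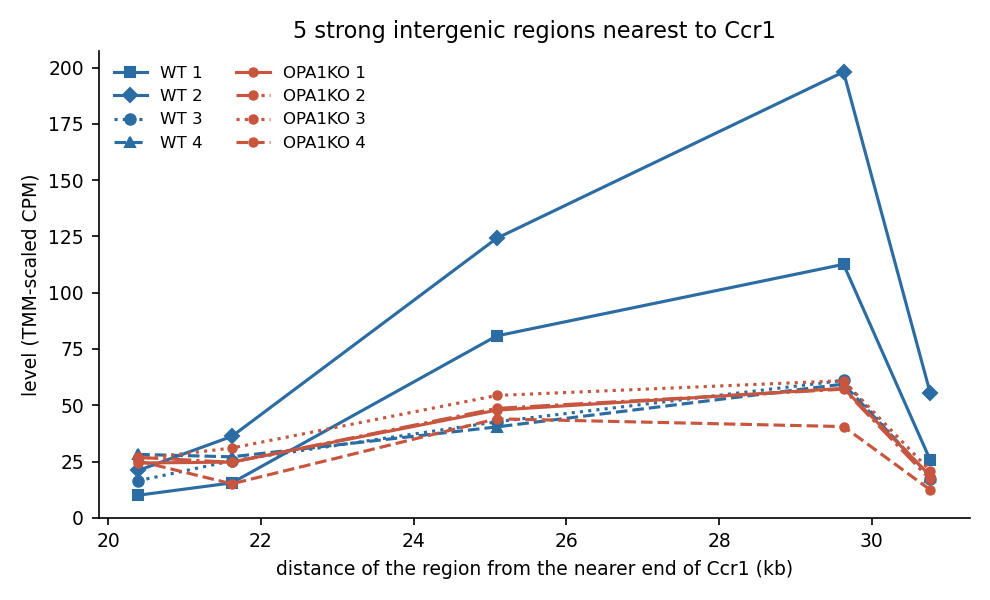
Level in TMM-scaled CPM (y axis) of the 5 regions nearest to Ccr1 against their distance from the nearer end of the gene in kb (x axis). Each line is 1 library, blue for WT and red for OPA1KO; WT 2 and WT 1 stand above the other 6 libraries at the 3 regions beyond 25 kb.

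Immediate-early and inflammatory genes were among the 6 with the most strong intergenic regions around them. Dusp1, a phosphatase that switches off MAP kinases, had 8, between 1.00 and 25.3 kb away, and their level summed to 347, 566, 373 and 447 CPM in WT and to 438, 459, 501 and 304 CPM in OPA1KO. Ier5, an immediate-early gene, had 7, summing to 303, 375, 296 and 323 CPM in WT and to 329.9, 344, 339 and 306 CPM in OPA1KO. Il1b, the cytokine interleukin 1 beta, had 6, summing to 253, 440.4, 283 and 337 CPM in WT and to 353, 355, 368 and 233 CPM in OPA1KO. WT replicate 2 had the highest sum at all 3 genes, and the groups overlapped. The Il1b regions reached from 1.96 to 42.3 kb and were called in neither direction; the strongest of them (chr2:129373126-129373795) was at 79.4, 129, 87.6 and 101 CPM in WT and at 106, 105, 114 and 76.2 CPM in OPA1KO. Gm4832 and Smndc1 had 6 each and Zswim4 had 5. Of the Zswim4 regions, only that at chr8:84207795-84208115 lay within 1 kb of the hairpins of miR-23a, miR-27a and miR-24-2. Another 7 genes, Ccr1 among them, also had 5 regions, and Zswim4 was taken as the sixth for its higher summed level. Of the 38 regions at these 6 genes, 31 were highest in WT replicate 2, and 0 had an unadjusted p under 0.05 in edgeR; the smallest was 0.0833.

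Of 12 lists of genes by function, the one for NF-kB and AP-1 signalling had the most strong intergenic regions, 54 at 22 of 40 genes. None was called, 31 had a positive and 23 a negative log2 fold change, and the median was 0.03. A region 4.82 kb from Fos was at 37.9, 63.0, 39.5 and 51.3 CPM in WT and at 55.5, 56.8, 56.2 and 53.5 CPM in OPA1KO, the smallest p of the list (edgeR adjusted p = 0.830). The WT libraries spanned the whole OPA1KO range. A region 1.73 kb from Zfp36, which degrades cytokine messages, was at 117, 172, 130.3 and 143 CPM in WT and at 136, 147, 151 and 116 CPM in OPA1KO. A region 46.6 kb from Tnfaip3, an inhibitor of NF-kB, had a mean of 105 CPM and lay over the promoter of the lncRNA Gm51814.

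Transcription factors of dendritic cells had 27 regions at 20 of 58 genes, with 9 positive and 18 negative and a median of -0.02. One region 17.6 kb from Klf6 had an unadjusted p under 0.05: it was at 35.3, 25.0, 30.0 and 26.9 CPM in WT and at 22.8, 19.8, 19.7 and 30.4 CPM in OPA1KO (-0.34 ± 0.15, edgeR adjusted p = 0.743). OPA1KO replicate 4 lay among the WT libraries, so the groups overlapped. Regions near Nr4a1 (134 CPM) and Egr3 (100.5 CPM), both induced by receptor signalling, had log2 fold changes of -0.01 and -0.02.

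Cytokines and chemokines had 18 regions at 9 of 37 genes, 13 positive and 5 negative, with a median of 0.06. A region 3.65 kb from Osm, the cytokine oncostatin M, was at 57.5, 112, 61.9 and 88.5 CPM in WT and at 83.3, 81.3, 92.3 and 63.0 CPM in OPA1KO. Near Ccl3, a chemokine that binds Ccr1, a region 7.20 kb away was at 30.3, 43.0, 30.6 and 35.7 CPM in WT and at 42.7, 42.8, 46.6 and 33.2 CPM in OPA1KO (0.24 ± 0.13, edgeR adjusted p = 0.815). The groups overlapped at both. The median deviation over this list's regions was 0.36 in WT replicate 2 and -0.32 in WT replicate 1, a range over libraries of 0.68, the highest of the 12 lists. For migration, adhesion and cytokine receptors (18 regions at 10 of 45 genes) the range was 0.58, and for transcription factors of dendritic cells 0.23.

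Antigen presentation, the main task of cDC1, had 8 regions at 6 of 39 genes. A region 5.50 kb from H2-Aa, a chain of MHC class II, was at 100.1, 148, 109 and 120.1 CPM in WT and at 131, 133, 145 and 102 CPM in OPA1KO. A region 4.97 kb from H2-Ab1, the partner chain, was at 52.2, 59.9, 55.3 and 57.4 CPM in WT and at 55.0, 53.0, 58.6 and 52.4 CPM in OPA1KO. The groups overlapped at both, and the list's median was -0.06. Costimulation and T cell ligands had 8 regions at 5 of 25 genes, among them 1 near Cd83 (44.3 CPM, 0.06) and 1 near Cd44 (87.2 CPM, 0.04). Innate sensing had 7 at 7 of 34 genes and the interferon response 7 at 5 of 40, including regions near Ifitm3 (82.8 CPM, 0.15) and Trim25 (71.3 CPM, 0.05).

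The genes closest to the function of OPA1 formed a list of their own. Of 56 genes of mitochondrial function and dynamics 2 had a region each, where 5.33% of all protein-coding models were a nearest gene. With so small a list, the count is not read as a difference from that share. The region 9.53 kb from Bnip3, a receptor for the removal of mitochondria, was at 23.7, 23.7, 24.3 and 22.6 CPM in WT and at 25.8, 19.6, 24.4 and 22.5 CPM in OPA1KO. The region 31.7 kb from Phb, an inner membrane scaffold protein, was at 51.7, 58.6, 53.8 and 60.1 CPM in WT and at 55.5, 55.9, 57.7 and 53.0 CPM in OPA1KO. Both had log2 fold changes close to 0, -0.03 ± 0.14 and -0.01 ± 0.10 (SE, edgeR adjusted p = 0.990 and 0.995).

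Stress response, autophagy and lysosome genes had 15 regions at 10 of 40 genes with a median of 0.01. Sesn2, a stress-induced inhibitor of mTORC1, had a region 4.96 kb away at 67.3, 52.7, 51.7 and 50.6 CPM in WT and at 54.0, 62.6, 55.1 and 60.7 CPM in OPA1KO, and Txnrd1, a thioredoxin reductase, had 1 with a log2 fold change of -0.17 ± 0.10 (edgeR adjusted p = 0.825). At Sesn2 WT replicate 1 was the highest library. Metabolism and nutrient sensing had 13 regions at 9 of 41 genes, of which the Hif1a region alone had an unadjusted p under 0.05. Cell cycle and survival had 25 regions at 14 of 41 genes. There 1 region 41.2 kb from Bcl2l11, which encodes the death-promoting protein BIM, was at 17.3, 16.7, 17.3 and 20.8 CPM in WT and at 26.3, 23.4, 25.9 and 18.7 CPM in OPA1KO (0.39 ± 0.16, edgeR adjusted p = 0.673). OPA1KO replicate 4 was below WT replicate 4, so the groups overlapped. Over the 12 lists the median log2 fold change ran from -0.06 to 0.06, beside -0.01 for all strong intergenic regions.

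The 9 lists of cell type markers held 15 of the regions, at 8 lists, and none was called. For cDC1 markers there were 2, the Tlr3 region and 1 that lay 30.7 kb from Cadm1, an adhesion molecule of cDC1, at 16.7, 29.9, 20.9 and 25.8 CPM in WT and at 20.8, 15.2, 22.9 and 13.5 CPM in OPA1KO (-0.36 ± 0.18, edgeR adjusted p = 0.801). OPA1KO replicates 2 and 4 were below all WT libraries, and replicates 1 and 3 were among them. A region 4.47 kb from Sirpa, a cDC2 and macrophage surface receptor, was at 51.9, 87.0, 58.3 and 68.4 CPM in WT and at 64.2, 70.02, 68.6 and 53.0 CPM in OPA1KO. Macrophage and monocyte markers had 4 regions, plasmacytoid cell markers 3, neutrophil markers 2, and B, T and NK cell markers 1 each.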

How the data were processed

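The deposited values are raw counts per region for 8 ATAC-seq libraries. The submitters' processing notes list the builds mm10 and GRCm38 and the tools MACS2 2.1.0.20150603, bedtools, SAMtools, cutadapt 1.9 and Picard 1.65; their roles, any read shift for the transposase and the rule behind the common region set are not given in the sources used here. Libraries totalled 4660826 to 7590578, and the median strong intergenic region had a count of 145 to 252 in them; 56.6% of these counts were even, and whether both ends of a read pair were counted is not given in the sources used here. Positions are printed as deposited, without knowing whether starts count from 0 or 1.

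Gene spans, promoter windows and miRNAs came from RefSeq tables (GRCm38). Strand was known for the nearest genes of 79.9% of regions, under 80%, so a check of upstream against downstream position was void. Regions were filtered with filterByExpr (59247 kept, 659 removed), TMM-scaled (factors 0.947 to 1.03) and tested over the whole table with edgeR 4.0.16 in R 4.3.3 (glmQLFit, robust; glmQLFTest; Benjamini-Hochberg). Library comparisons used exact permutation tests. The procedure was tested on simulated data. Alternatives were other size factors and filters, DESeq2 1.42.0, limma-voom (limma 3.58.1), a replicate block, each library left out, and other limits on level, distance and gene models.

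The regions, the 21 gene lists (611 genes, 603 with a model) and the tests were chosen with earlier results of these data known. Named were the 12 strongest regions, called regions, up to 8 per direction with groups not overlapping, up to 3 per list by level and the 1 with the smallest p, the 6 genes with most regions, and regions at the level limit; miRNA, lncRNA, Odc1, Ccr1 and Vmp1 regions were added after their values were seen. Sequence outside promoter windows and miRNAs was not used here.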

Additional observations from a re-analysis of the deposited data

Results flagged for a closer look

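Of 74 groups of 4 libraries examined, 3 had 1 library far from the other 3 by Dixon's ratio, at a level that chance passes in about 1 group in 20. At the region near Gm38664, OPA1KO replicate 1 was at 42.3 CPM, and the next OPA1KO library was at 34.3 CPM. At the region near Hif1a, OPA1KO replicate 1 was at 16.1 CPM, below the next at 21.7 CPM. The log2 ratio of counts in strong intergenic regions to counts in strong regions inside genes was -0.99 in OPA1KO replicate 4, and the next OPA1KO library was at -0.94. OPA1KO replicate 4 was the lowest library at 403 of the 1571 regions.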

How the results depend on the processing

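At most 1 of the 1571 regions was called under any alternative run that kept this set; over the whole table, edgeR called 12 regions, DESeq2 38, limma-voom 4, edgeR with a replicate block 1 and edgeR without 1 library 1 to 68. Leaving out 1 library in turn gave 0 to 1 called regions, 29 to 143 with an unadjusted p under 0.05, and a median log2 fold change from -0.06 to 0.06. Only without WT replicate 2 was the percentage at that p above that of all tested regions, at 9.10% against 8.56%. With 1 library left out, the difference in the share of counts ran from -0.140 to 0.253 percentage points. It turned negative without WT replicate 1 (-0.140) or 3 (-0.0489), or without OPA1KO replicate 1 (-0.00778), 2 (-0.00103) or 3 (-0.0486). The log2 ratio to gene-end regions differed by -0.018 (without WT replicate 1) to 0.075; that to strong regions inside genes by 0.00032 to 0.033. With a level limit of 10 CPM there were 3860 regions, of which 1 was called, near Clca2 (13.3 CPM), and 149 (3.86%) had an unadjusted p under 0.05. With 40 CPM there were 530 regions and 8 (1.51%). Of all tested regions, 6.38% had such a p. Of 330 fits of 22 named regions under other size factors, filters, tests, the block or a left-out library, 328 kept their direction. The region at chr9:123940173-123940505 near Ccr1 ran from -0.30 to 0.0938 with 1 library left out, positive at 0.0938 without WT replicate 2 and 0.05 without OPA1KO replicate 4, and the region near Odc1 was called in 1. Same-numbered WT and OPA1KO libraries deviated at correlations of -0.53 to 0.07 over the regions, and 0 of 4 correlated best with its own number. The deviations follow the spread of WT replicates 1 and 2 and OPA1KO replicate 4, so they cannot decide whether the numbers pair libraries. A replicate block left 0 called, 31 with an unadjusted p under 0.05 (1.97%, beside 5.12% of all tested regions) and a median of -0.01. With 145 to 252 counts per region and library at the median, the standard error of 0.14 limits what could be detected. The cause of the changes was not tested.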
